A study of Mus musculus with 6 samples.

Results

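The clustered protocadherins are the genes whose symbols in the count table begin with Pcdha, Pcdhb, Pcdhga, Pcdhgb, Pcdhgc or Pcdhac and end in a number. The rule found 58 of 23420 genes, namely 14 of the alpha cluster (12 variable members and the C-type members Pcdhac1 and Pcdhac2), 22 of the beta cluster and 22 of the gamma cluster (12 gamma A, 7 gamma B and 3 C-type). They were read in mouse embryonic stem (ES) cells held in self-renewing conditions. Both groups carried a stably integrated lentivirus, encoding wild-type KBP in replicates 1, 2 and 3 and the mutant KBP(KK/RR), which the labels call stable, in replicates 4, 5 and 6. KBP is the Kif1-binding protein, and untransduced cells were not part of the design. The labels do not say whether the 3 libraries of a group came from separate cultures, nor whether a line is 1 clone. P-values then measure the spread between these libraries, which may be technical.

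Clustered protocadherins are cadherin-superfamily proteins of the cell surface, best known in neurons, where each cell uses its own combination of isoforms and like isoforms on opposing membranes recognise each other. In the alpha and gamma clusters each variable exon has its own promoter and encodes an extracellular and transmembrane part, and it is spliced to constant exons that encode a cytoplasmic end shared by the whole cluster. Beta genes are mostly single exons with no constant part. CTCF and cohesin loop distal enhancers to the promoters in use, DNA methylation keeps others silent, and the C-type promoters are used more uniformly.

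All 58 members lie on the plus strand of chromosome 18 on GRCm38, by RefSeq positions and GENCODE strand. The alpha cluster spans 36930285 to 37188897, the beta cluster 37264998 to 37521419 and the gamma cluster 37661775 to 37841873. In the GENCODE M21 annotation the share of a member's exonic bases that another member also uses had a median of 53.4% in the alpha cluster (38.0% to 54.9%) and 44.7% in the gamma cluster (27.8% to 66.8%). In the beta cluster the median was 0%, with a maximum of 9.67%. The first exon, which carries the isoform's own sequence, had a median GC content of 53.1% for alpha, 46.0% for beta and 52.5% for gamma members. It was not fully distinct among close relatives. The share of its stretches of 50 bases that also occur in the first exon of another member had a median of 14.9% among the 12 variable alpha members, 11.6% among gamma B, 4.26% among beta, 0.295% among gamma A and 0% among the C-type members, so single values of alpha and gamma B members are the least certain.

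Reads of the constant exons had not been added to every isoform. Pcdhga6 had 0 counts in KBP(KK/RR) replicate 4, where Pcdhgc3, which shares its constant exons, had 398, and Pcdha4 had 0 counts in all 6 libraries. Whether such reads were dropped or given to a single member is not known. The counts are read here as standing mainly for the variable exons, and levels per length rest on that reading. The RNA was depleted of ribosomal RNA and not selected for poly(A), and a primary transcript that starts at one variable exon runs through those downstream of it. Mature and unspliced RNA cannot be told apart in this table. Antisense genes annotated in GENCODE overlap the own exons of 8 gamma members, 4 alpha members and 1 beta member, and since the strand setting is not given, reads of both strands may be joined there. The gamma members concerned include Pcdhgc3, Pcdhga11 and Pcdhga1, which stood highest per length.

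The 6 libraries held 24131743 to 32160411 counts, of which the 58 members took 8641 in all. ES cell markers stood high in both groups, with Pou5f1, the gene of the core pluripotency factor OCT4, at 1451 ± 58.9 CPM (counts scaled to library totals that were adjusted by the TMM method) with wild-type KBP and 1435 ± 55.8 CPM with KBP(KK/RR) (mean ± SD, n = 3, as below), Dppa5a at 1224 ± 26.2 and 1276 ± 26.8 CPM and Tdgf1 at 1060 ± 23.0 and 1044 ± 21.8 CPM. Genes used as neural markers were also present, led by Stmn2 at 257 ± 6.10 and 260 ± 3.45 CPM, Tubb3 at 82.8 ± 3.79 and 86.5 ± 5.29 CPM and Nes at 43.8 ± 0.745 and 45.0 ± 1.83 CPM.

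The gamma cluster supplied 92.5% of all clustered protocadherin counts, the beta cluster 6.50% and the alpha cluster 1.01%. The order held in each library, where the gamma share ran from 91.5% to 94.0%, the beta share from 5.34% to 7.51% and the alpha share from 0.649% to 1.33%. Expressed per kilobase of exon that no other member uses, the median member stood at 0.600 CPM per kb in the gamma cluster, 0.0190 in the beta cluster and 0.00927 in the alpha cluster, over all 6 libraries. With the longest transcript as the length, which counts shared exons too, these medians were 0.331, 0.0181 and 0.00457 CPM per kb. The clusters were not fully apart: with wild-type KBP the highest beta member, Pcdhb17, stood at 0.174 ± 0.0370 CPM per kb, above the means of the gamma members Pcdhgb1 (0.146 ± 0.0283), Pcdhgc5, Pcdhga6 and Pcdhgc4.

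**Figure D1:**
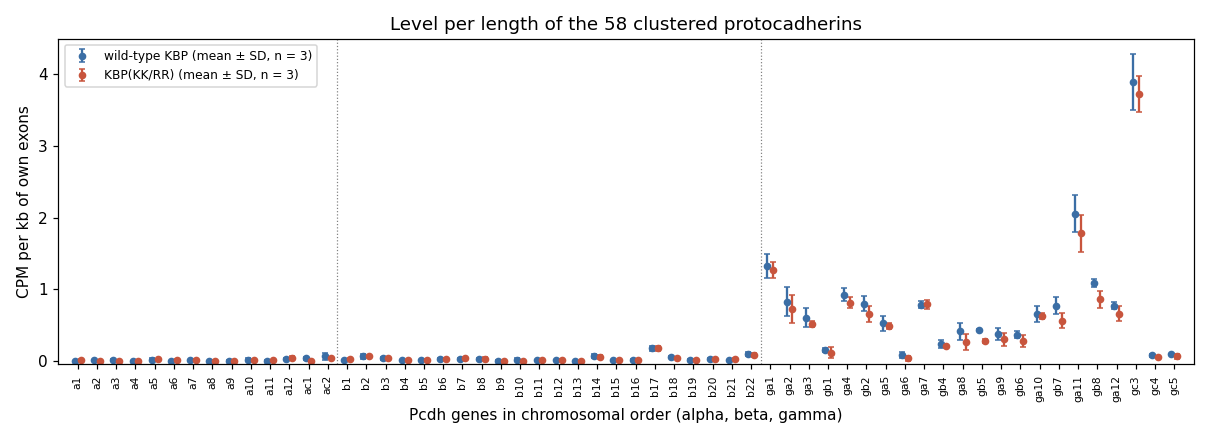
Level per length (CPM per kb of exon not shared with another member, linear axis) of each of the 58 members in chromosomal order, mean ± SD over 3 libraries for wild-type KBP (blue) and KBP(KK/RR) (red); dotted lines separate the alpha, beta and gamma clusters. Pcdhgc3 stands highest, at 3.89 ± 0.388 with wild-type KBP and 3.72 ± 0.247 with KBP(KK/RR), and alpha members lie close to 0.

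In the alpha cluster, whose proteins were first described as receptors of the nervous system, the 14 members together had 9 to 24 counts per library. Summed, they measured 0.498, 0.748 and 0.375 CPM with wild-type KBP and 0.504, 0.367 and 0.572 CPM with KBP(KK/RR), so the groups overlapped. The ratio of the group means was 0.891 ± 0.368 (KBP(KK/RR) over wild-type KBP, SD carried over from the libraries), and 1.08 without Pcdhac2, the most abundant member. None of the 14 passed edgeR's filter on low counts, so no alpha member has a test. Among the 12 variable members the counts over all 6 libraries ran from 0 to 14, highest in Pcdha12 (1, 3 and 1 counts with wild-type KBP and 3, 1 and 5 with KBP(KK/RR)), and Pcdha5 had 7. Pcdha4 was at 0 throughout, which allows a level of up to 0.0181 CPM over the 6 libraries (3 counts, counting error only).

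The C-type alpha members were sparse too, with 9 counts over all 6 libraries for Pcdhac1 and 26 for Pcdhac2, above the highest variable member (14). Pcdhac2, known for its part in the spacing of serotonergic axons, had 4, 11 and 2 counts with wild-type KBP and 3, 2 and 4 with KBP(KK/RR). Pcdhac1 had 3, 4 and 1 counts against 0, 1 and 0, so that 1 count in 1 mutant library meets 1 count in a wild-type library of about the same size (0.0408 and 0.0417 CPM). No direction can be read for either at this depth.

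In the beta cluster, whose products carry no constant part, summed levels were 3.56, 3.55 and 3.09 CPM with wild-type KBP and 3.73, 3.67 and 2.69 CPM with KBP(KK/RR). Highest and lowest library both belonged to the KBP(KK/RR) group, and the ratio of the means was 0.990 ± 0.189. Of the 22 genes, 3 passed the filter: Pcdhb17, Pcdhb22 and Pcdhb14, which lie in the distal part of the array. Pcdhb17 measured 0.842, 0.966 and 0.625 CPM with wild-type KBP and 0.907, 0.939 and 0.606 CPM with KBP(KK/RR). Its log2 fold change (KBP(KK/RR) minus wild-type KBP, as below) was -0.03 with a 95% interval of -0.57 to 0.52. Pcdhb22 was at 0.598 ± 0.166 against 0.516 ± 0.191 CPM and Pcdhb14 at 0.571 ± 0.242 against 0.467 ± 0.235 CPM, with intervals of the log2 fold change of -0.90 to 0.47 and -1.08 to 0.45. The groups overlapped for all 3. The 19 beta members without a test had 0 to 43 counts over the 6 libraries, with Pcdhb13 at 0 and Pcdhb18 at 43, and none had 10 or more counts in any library.

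**Figure D2:**
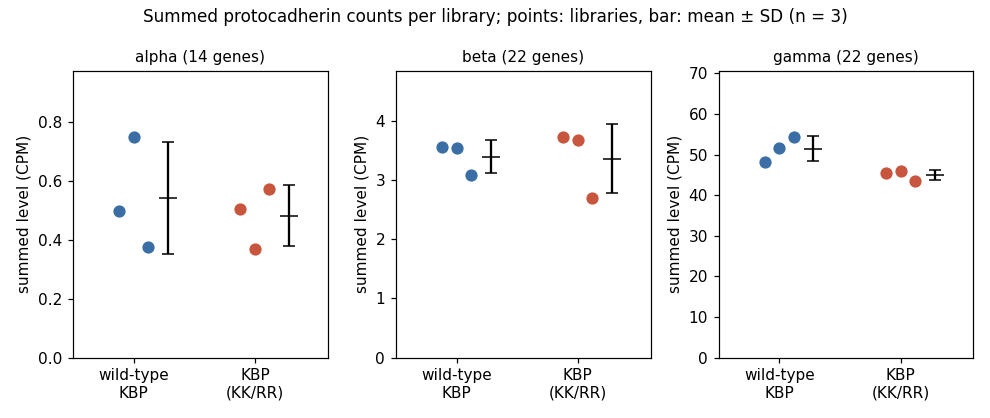
Summed level (CPM, axes from 0 and scaled per panel) of the alpha, beta and gamma clusters in each library (points), with the mean ± SD of 3 libraries beside them. The groups overlap for alpha and beta, and the gamma sums of KBP(KK/RR) (43.6 to 45.8 CPM) lie below those of wild-type KBP (48.2 to 54.3 CPM).

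In the gamma cluster the summed level was 48.2, 51.7 and 54.3 CPM with wild-type KBP and 45.4, 45.8 and 43.6 CPM with KBP(KK/RR). Every mutant library lay below every wild-type one. The means were 51.4 ± 3.08 and 45.0 ± 1.20 CPM, a ratio of 0.874 ± 0.0574. With single libraries left out the ratio stayed between 0.848 and 0.900, and without Pcdhgc3 it was 0.846. The sum is a description, with no test. In bulk RNA, fewer cells that express a gene and less RNA per cell cannot be told apart.

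Marker sums of primitive endoderm and fibroblasts were also lower with KBP(KK/RR), without overlap. The 9 primitive endoderm markers (genes of the extraembryonic lineage that lies beside the epiblast; 8 tested, 0 at 0 counts) summed to 320 to 395 CPM with wild-type KBP and 251 to 299 CPM with KBP(KK/RR). Lama1 contributed 227 ± 27.6 and 161 ± 18.8 CPM, Col4a1 111 ± 9.94 and 92.9 ± 4.20 CPM and Dab2 8.37 ± 1.22 and 7.89 ± 0.705 CPM. Lama1 and Col4a1 thus supplied most of the sum. The groups overlapped for Gata4 (4.62 ± 0.261 and 4.05 ± 0.549 CPM), Gata6 (1.31 ± 0.256 and 1.16 ± 0.248 CPM), Sox17 and Foxa2. Sox7 was lower without overlap (3.06 ± 0.0603 and 2.24 ± 0.364 CPM). Of the 8 log2 fold changes 7 were negative, with Sox17 above 0 (0.07). EdgeR called 2 of the 8 lower, Col4a1 and Pdgfra (adjusted p 0.0170 and 0.0342), where 2.07% of all tested genes were called lower. DESeq2 called Col4a1 and Lama1 and gave no adjusted p for 5 of them. The edgeR calls were lost for Col4a1 without replicate 3, 5 or 6 (adjusted p 0.0613 to 0.114) and after offsets for length and GC content (0.0550), and for Pdgfra without any one of replicates 2 to 6 (0.0605 to 0.181). The 10 fibroblast or feeder markers (0 at 0 counts in all libraries) summed to 33.4 to 37.6 and 29.8 to 32.6 CPM. Of the 6 tested, edgeR called 0, with 1 at an unadjusted p under 0.05, where 18.6% of all tested genes reached it. DESeq2 called 1, Fbn1, lower and gave no adjusted p for 4. The sum was led by Fbn1 (12.9 ± 1.61 and 9.74 ± 1.75 CPM), Col1a1 (9.34 ± 0.897 and 8.22 ± 0.534 CPM) and Pdgfrb (5.38 ± 0.443 and 5.18 ± 0.416 CPM). The list was mixed, with 3 of the 6 log2 fold changes negative and a median of -0.02. Col3a1 stood higher with KBP(KK/RR) without overlap (0.686 ± 0.0893 and 0.927 ± 0.0711 CPM, log2 fold change 0.42, edgeR adjusted p = 0.378), and Col1a2 (0.07) and Thy1 (0.01) were also above 0. Among the sparse genes of the list, Lum had 0 counts in each wild-type library and at most 1 in a mutant one. Dcn had 4, 6 and 4 counts with wild-type KBP and 5, 5 and 5 with KBP(KK/RR). The 15 neural markers summed to 473 to 484 and 475 to 494 CPM. Of the 12 tested, 0 were called by edgeR or DESeq2, and DESeq2 gave no adjusted p for 5. An unadjusted p under 0.05 in edgeR was reached by 4 of the 12, against the same 18.6% of all tested genes. The 8 trophectoderm markers summed to 91.4 to 100.3 and 100.5 to 104.6 CPM. Of the 7 tested, edgeR called 1 higher, where 1.05% of all tested genes were called higher. These markers were led by Tfap2c (35.1 ± 1.56 and 44.2 ± 2.51 CPM), Krt8 (33.6 ± 2.57 and 33.5 ± 1.83 CPM) and Krt18 (14.4 ± 0.599 and 13.1 ± 0.999 CPM). Whether such cells have a part in the protocadherin values was not tested.

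Within the array, levels per length differed widely between members while their order was much the same in both groups (Spearman's rho of the mean CPM 0.988 across the 22 gamma members, which share libraries and are not independent). Pcdhgc3 was the highest at 3.89 ± 0.388 CPM per kb with wild-type KBP, followed by Pcdhga11 (2.06 ± 0.263), Pcdhga1 (1.33 ± 0.170), Pcdhgb8 (1.08 ± 0.0543) and Pcdhga4 (0.924 ± 0.0917). The place of Pcdhga4 depends on its short own length, 1570 bases, where its first exon has 2608. Without division by length it stood at 1.45 ± 0.144 CPM, below Pcdhga12 at 3.51 ± 0.231. With the longest transcript as length these members stood at 0.288 and 0.640 CPM per kb over all 6 libraries. The libraries of Pcdhgc3, Pcdhga11 and Pcdhga1 did not overlap with each other in the wild-type KBP group, whereas those of Pcdhga1 reached down to 1.13 CPM per kb, within the range of Pcdhgb8, whose highest library also stood at 1.13. At the other end were Pcdhgc5 (0.0954 ± 0.00428), Pcdhga6 (0.0877 ± 0.0421) and Pcdhgc4 (0.0755 ± 0.0149 CPM per kb), and the libraries of Pcdhga6 spanned those of the other two. Between level per length and position in the array rho was -0.08 over the 22 members.

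**Figure D3:**
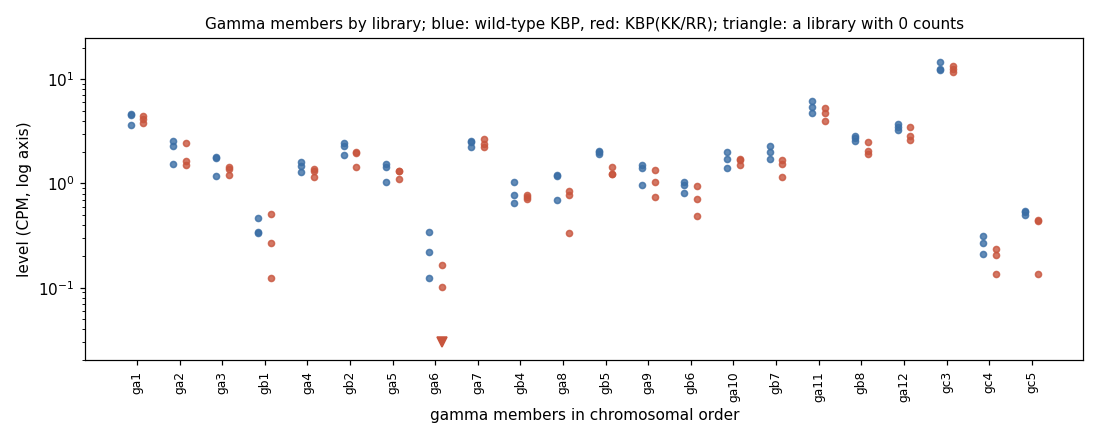
Level (CPM, log axis) of each of the 22 gamma members in each library, in chromosomal order; blue points are the 3 wild-type KBP libraries, red points the 3 KBP(KK/RR) libraries, and the triangle marks the library in which Pcdhga6 had 0 counts. Pcdhgc3 lies at 11.7 to 14.6 CPM, and the red points of Pcdhgb5 (1.22 to 1.45 CPM) lie below the blue ones (1.93 to 2.07 CPM).

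The C-type gamma members were at opposite ends. Pcdhgc3, a broadly expressed isoform whose cytoplasmic part is known to bind Axin1, gave 24.6% of all clustered protocadherin counts. It measured 12.7, 12.2 and 14.6 CPM with wild-type KBP and 13.4, 12.7 and 11.7 CPM with KBP(KK/RR), and the groups overlapped. On the log2 scale Pcdhgc3 differed by -0.06 (95% interval -0.23 to 0.11, SE 0.08), with an edgeR adjusted p of 0.754. Pcdhgc4, an isoform needed for the survival of interneurons, had 7, 10 and 5 counts against 7, 5 and 4 and was not tested. Pcdhgc5, expressed late in the developing brain, measured 0.536, 0.498 and 0.542 CPM with wild-type KBP and 0.437, 0.449 and 0.135 CPM with KBP(KK/RR). Every mutant library was lower, but the interval of the log2 fold change, -1.42 to 0.14, included 0 (edgeR adjusted p = 0.378). Pcdhgc5 was above the filter's bound in every wild-type KBP library but not in every KBP(KK/RR) library, which can favour a lower value with KBP(KK/RR).

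The 7 gamma B members, a subfamily interspersed among the gamma A genes, summed to 10.4, 11.5 and 11.3 CPM with wild-type KBP and 9.04, 7.72 and 8.62 CPM with KBP(KK/RR). The groups did not overlap and the ratio of the means was 0.765 ± 0.0715. As a share of all clustered counts gamma B stood at 19.5% to 20.5% against 15.5% to 18.4%. The 12 gamma A members summed to 24.3, 27.3 and 27.7 CPM and to 22.3, 24.8 and 23.0 CPM, groups that overlapped, with a ratio of 0.885 ± 0.0793. The 3 C-type members summed to 13.5, 13.0 and 15.4 CPM and to 14.0, 13.3 and 11.98 CPM, which also overlapped, with a ratio of 0.941 ± 0.114 (0.674 without Pcdhgc3). Differences between these ratios were not tested.

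**Figure D4:**
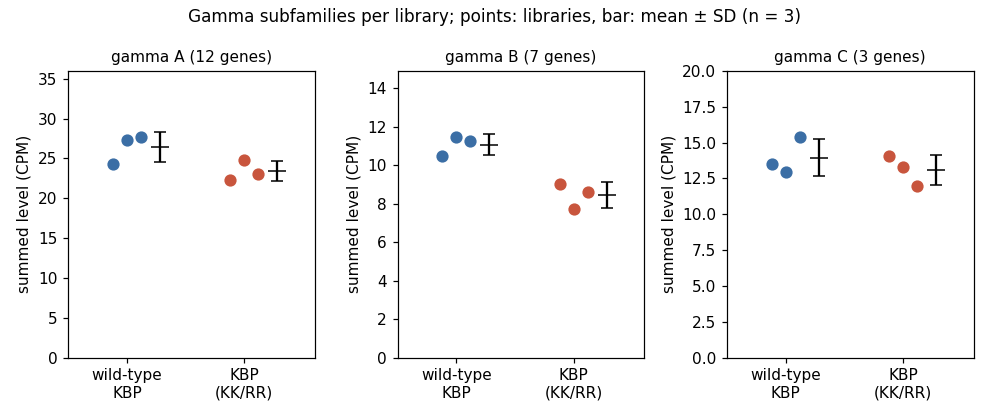
Summed level (CPM, axes from 0 and scaled per panel) of the gamma A, gamma B and C-type gamma members in each library (points), with the mean ± SD of 3 libraries beside them. The KBP(KK/RR) libraries of gamma B (7.72 to 9.04 CPM) lie below those of wild-type KBP (10.4 to 11.5 CPM), and the groups overlap in the other panels.

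No clustered protocadherin passed the test in edgeR. Of the 58 members 22 passed the filter (0 alpha, 3 beta and 19 gamma), and edgeR called 0 of them at an adjusted p under 0.05, where 3.12% of all 14340 tested genes were called (2.07% lower and 1.05% higher). An unadjusted p under 0.05 was reached by 4 of the 22, Pcdhgb5, Pcdhgb7, Pcdhga8 and Pcdhgb8, all lower with KBP(KK/RR). Of all tested genes 18.6% reached it, 10.3% on the lower side. The share among the members was near the first of these and above the second, a difference that was not tested. Limma-voom called 0, with 5 members at an unadjusted p under 0.05. DESeq2, which called 3.1% of the genes it gave an adjusted p, called 0, with 1 member at an unadjusted p under 0.05. Its adjusted p was NA for 21 of the 22, all but Pcdhgc3. Groups that did not overlap were found for 4 of the 22, all lower with KBP(KK/RR) (Pcdhgb5, Pcdhgb7, Pcdhgb8 and Pcdhgc5), against 10.5% of all tested genes on that side. With wild-type KBP replicate 1 left out, a comparison of fewer libraries, the number was 11, all lower, against 17.2% of all tested genes. Among the 18 members above the filter's bound in all 6 libraries, 3 had an unadjusted p under 0.05 and 3 did not overlap. Pcdhga8 and Pcdhgc5 are not among these, since not every KBP(KK/RR) library was above that bound. Outside the test, the groups also did not overlap for Pcdhac1, where only library size separates single counts, and for Pcdhb21, which had 1, 1 and 1 counts with wild-type KBP and 2, 5 and 3 with KBP(KK/RR).

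Pcdhgb5 (37730971 to 37841870) came nearest to the threshold. It measured 2.07, 1.93 and 2.002 CPM with wild-type KBP and 1.24, 1.22 and 1.45 CPM with KBP(KK/RR), from 48 to 62 counts and 30 to 43 counts per library. The highest mutant library lay below the lowest wild-type one. The log2 fold change was -0.61 (SE 0.18, 95% interval -0.97 to -0.24, edgeR adjusted p = 0.0623), a level 0.657 times that of wild-type KBP. Over the alternatives the adjusted p ran from 0.0415 to 0.158. It was under the threshold when every gene with a count was tested (0.0415) and when offsets took out a smooth dependence on transcript length and GC content (0.0499), settings that called 5.07% and 4.94% of all genes.

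Its relatives showed the spread of the subfamily. Pcdhgb7 stood at 1.99, 2.31 and 1.71 CPM against 1.68, 1.14 and 1.55 CPM, a log2 fold change of -0.46 (interval -0.85 to -0.07, edgeR adjusted p = 0.189). Pcdhgb8, annotated by RefSeq as a transcribed pseudogene, stood at 2.56, 2.71 and 2.84 CPM against 1.92, 2.04 and 2.49 CPM, a log2 fold change of -0.33 (interval -0.64 to -0.01, edgeR adjusted p = 0.256). In both the groups were separate by a narrow gap. Pcdhgb2 (-0.31), Pcdhgb6 (-0.35) and Pcdhgb4 (-0.14) had groups that overlapped and intervals that included 0. Pcdhgb1, untested, had 9, 15 and 8 counts against 15, 3 and 8.

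Among the gamma A genes, Pcdhga8 had the lowest log2 fold change of the 22 tested members, -0.68 (interval -1.31 to -0.05, edgeR adjusted p = 0.232). It was above the filter's bound in every wild-type KBP library but not in every KBP(KK/RR) library, which can favour a value below 0. Its levels were 0.689, 1.18 and 1.21 CPM with wild-type KBP and 0.840, 0.776 and 0.337 CPM with KBP(KK/RR), so wild-type KBP replicate 1 lay within the mutant range. The most abundant members of the subfamily differed less. Pcdhga11 measured 5.42 ± 0.692 and 4.70 ± 0.676 CPM (-0.19, interval -0.45 to 0.06), Pcdhga1 4.31 ± 0.553 and 4.12 ± 0.344 CPM (-0.08, interval -0.34 to 0.18) and Pcdhga12 3.51 ± 0.231 and 2.99 ± 0.474 CPM (-0.24, interval -0.53 to 0.04). Pcdhga7, at 2.44 ± 0.170 and 2.44 ± 0.205 CPM, was the member with a log2 fold change above 0 (0.01). The sparsest, Pcdhga6, had 9, 7 and 3 counts against 0, 4 and 3 and was not tested. The remaining gamma A members (Pcdhga2, Pcdhga3, Pcdhga4, Pcdhga5, Pcdhga9 and Pcdhga10) lay between -0.34 and -0.06.

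**Figure D5:**
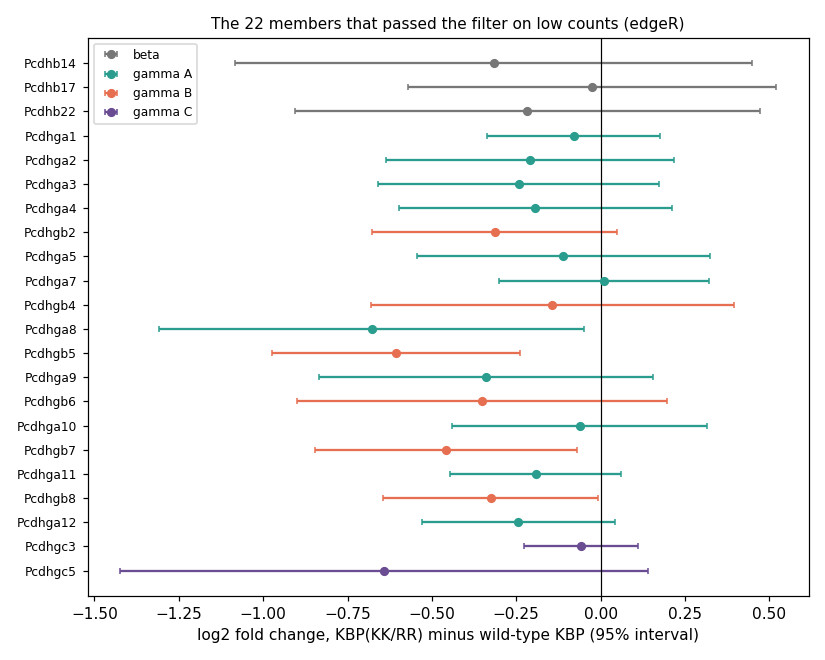
Log2 fold change (KBP(KK/RR) minus wild-type KBP, edgeR) with its 95% interval for the 22 members that passed the filter on low counts, in chromosomal order and coloured by subfamily. The interval excludes 0 for Pcdhga8, Pcdhgb5, Pcdhgb7 and Pcdhgb8, and no member passes after adjustment over all genes. Pcdhb14, Pcdhb22, Pcdhga8 and Pcdhgc5 were above the filter's bound in every wild-type KBP library but not in every KBP(KK/RR) library. This can favour values below 0.

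Across the 22 members with a test, 21 log2 fold changes were negative, where 50.8% of all tested genes were. The median was -0.23 for the members, against -0.00224 for all tested genes. It was -0.19 for gamma A, -0.34 for gamma B, -0.35 for the 2 tested C-type gamma members and -0.22 for the 3 beta members. These members share an array, libraries and in part sequence. Of them 4 (Pcdhb14, Pcdhb22, Pcdhga8 and Pcdhgc5) were above the filter's bound in every wild-type KBP library but not in every KBP(KK/RR) library. The numbers are thus a description of those that passed. Of the 18 above the filter's bound in all 6 libraries 17 were negative, with a median of -0.20. When every gene with a count was tested, 39 of 56 members were negative, against 51.5% of all genes. The 56 include the same 22. The members that only this setting tested had few counts and were split about evenly between the signs. After the offsets for length and GC content the median of the 22 was -0.20 and 21 were negative.

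The libraries were not equally far apart. A wild-type library was the highest of the 6 for 21 of the 22 tested members, with wild-type KBP replicate 3 the highest for 13. A KBP(KK/RR) library was the lowest for 16, with replicate 6 the lowest for 8. These counts are a description, since the same counts were not made over all tested genes. Pcdhb14, Pcdhb22, Pcdhga8 and Pcdhgc5 were above the filter's bound in every wild-type KBP library but not in every KBP(KK/RR) library. This can favour a wild-type library as the highest. Measured as the median log2 deviation of the tested members from the wild-type mean, the libraries stood at -0.10, 0.09 and 0.08 with wild-type KBP and at -0.17, -0.12 and -0.33 with KBP(KK/RR). Wild-type KBP replicate 1 thus lay close to KBP(KK/RR) replicates 4 and 5. Without KBP(KK/RR) replicate 6 the members' median log2 fold change was -0.14. Across the tested members the log2 fold change had a rho of -0.23 with the GC content of the first exon, 0.35 with the mean CPM and, for the 19 gamma members tested, -0.25 with position in the array.

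Genes known to organise these promoters gave no call. Of 13 architectural genes (CTCF, cohesin and its loaders and releasers, and promoter-anchoring factors) 0 were called by either edgeR or DESeq2. An unadjusted p under 0.05 in edgeR was reached by 1, against 18.6% of all tested genes. The boundary factor Ctcf measured 230 ± 5.40 and 235 ± 0.998 CPM (log2 fold change 0.03, edgeR adjusted p = 0.686) and the cohesin subunit Rad21 421 ± 5.13 and 415 ± 13.8 CPM (-0.02, 0.816). The cohesin-associated genes Pds5a and Pds5b were at -0.10 and -0.08 (edgeR adjusted p 0.222 and 0.387). Without KBP(KK/RR) replicate 4, Pds5a (0.0298) and the loader gene Nipbl (0.0478) were called lower.

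Of 20 silencing and methylation genes 1 rose and 1 fell in edgeR, against 3.12% called over all genes. An unadjusted p under 0.05 in edgeR was reached by 5, against 18.6% of all tested genes. DESeq2 called 3, adding Tet2, at 316 ± 21.8 and 244 ± 26.8 CPM (DESeq2 adjusted p = 0.0302, edgeR adjusted p = 0.104). The de novo DNA methyltransferase gene Dnmt3b rose, with 189 ± 4.54 CPM for wild-type KBP and 212 ± 2.99 CPM for KBP(KK/RR) (log2 fold change 0.17, SE 0.04, edgeR adjusted p = 0.0203). Tet3, for an enzyme that oxidises methylcytosine, fell, with 28.3 ± 1.33 and 23.3 ± 2.68 CPM (log2 fold change -0.28, SE 0.07, edgeR adjusted p = 0.0367). Dnmt3a was at 0.03 (adjusted p = 0.761) and Smchd1, a repressor of the clusters, at -0.07 (0.664). Neither call held with every library left out in turn. For Dnmt3b the adjusted p passed 0.05 on leaving out replicate 1 (0.0868), 2 (0.0715), 5 (0.0670) or 6 (0.0671). For Tet3 it did so on leaving out replicate 2 (0.171), 3 (0.103), 5 (0.131) or 6 (0.224), and after the offsets for length and GC content (0.189). Those offsets brought Dnmt3a (0.0374) and Tet2 (5.12e-06) under the threshold, and leaving out replicate 4 brought Smchd1 (0.0424) under it.

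Other genes related to the clusters gave no call in edgeR. Of all tested genes 18.6% reached an unadjusted p under 0.05 in edgeR, the share to set beside the counts below. Of 13 genes for shedding, gamma-secretase cleavage and signalling of protocadherins 0 were called by edgeR or DESeq2 (3 with an unadjusted p under 0.05 in edgeR). DESeq2 gave no adjusted p for 2 of the 13. The lowest p belonged to the gamma-secretase subunit gene Psenen (-0.17, edgeR adjusted p = 0.113, and 0.0231 after the offsets for length and GC content) and to the kinase gene Fyn (-0.14, 0.250). Of 12 protocadherins outside the clusters 5 were tested and 0 called by edgeR or DESeq2, with 1 at an unadjusted p under 0.05 in edgeR. DESeq2 gave no adjusted p for 4 of the 5. Pcdh17 measured 1.08 ± 0.224 and 0.658 ± 0.211 CPM (-0.75, edgeR adjusted p = 0.131) and Pcdh8 0.629 ± 0.158 and 0.444 ± 0.125 CPM (-0.49, 0.441). Of 19 genes that flank the arrays or lie between them 18 were tested and 0 called by edgeR or DESeq2, with 6 at an unadjusted p under 0.05 in edgeR. DESeq2 gave no adjusted p for 3 of the 18. Taf7, a general transcription factor gene between the beta and gamma arrays, was at 122 ± 4.18 and 133 ± 5.13 CPM (0.13, edgeR adjusted p = 0.105), and Zmat2, before the alpha array, at 114 ± 3.26 and 124 ± 2.35 CPM (0.13, 0.104).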

How the data were processed

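Mouse ES cells were profiled in 6 libraries, 3 per group, as total RNA that was depleted of ribosomal RNA (RiboZero); the library kit was ScriptSeq v2, per the labels' protocols. The submitters' processing notes name bcl2fastq, TopHat, HTSeq and DESeq2 and the builds mm10 and GRCm38. Which annotation was counted, and with what strand setting, is not given in the sources used here. Raw read counts per gene symbol were deposited by the authors, as was a normalized signal, which by its values is each count divided by 1 factor per library (100% of values whole within 0.01 once the factor is removed).

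Raw counts were tested with edgeR 4.0.16 under R 4.3.3 (filterByExpr, TMM, robust quasi-likelihood fit, group as the term), with Benjamini-Hochberg adjustment over 14340 genes and a threshold of 0.05. The SE is the absolute log2 fold change over the square root of F. Library totals (24131743 to 32160411) limit low-count members most. The filter asks for about 0.358 CPM in 3 libraries. Replicates differed by more than counting noise (chi-square per degree of freedom 2.70 to 7.17). Alternatives were DESeq2 1.42.0, limma-voom (limma 3.58.1), limma on log2 of the authors' signal plus 1, other scalings and filters, structural RNAs left out, a spline trend (5 degrees of freedom) on length and GC content removed, and each library left out. Length and GC content came from GENCODE M21 for 23046 of 23420 symbols. The fit was tested on simulated data.

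Members and lists were chosen with earlier results of these data known. Genes are named by a rule: called members, the 2 most abundant and 2 smallest p per variable subfamily, all C-type members, called and 2 smallest p per context list with Ctcf, Rad21, Smchd1, Dnmt3a and Dnmt3b, and the 3 highest per marker list. Other members, Tet2, Pdgfra, Gata4, Gata6, Sox17, Sox7, Foxa2, Lum, Dcn, Col1a2, Col3a1, Thy1 and Nipbl are named after their values were seen.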

Additional observations from a re-analysis of the deposited data

How the results depend on the processing

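No paired analysis was made, since the labels number the libraries 1 to 3 and 4 to 6 and do not say whether they were prepared in pairs. The number of changed genes, 448 in edgeR, was 298 in DESeq2, 966 when every gene with a count was tested, 703 with the length and GC trend removed, and 122 to 767 with 1 library left out. The number of clustered protocadherins called was 0, except 1, Pcdhgb5, when every gene with a count was tested and with that trend removed. Tested members whose groups do not overlap numbered 4, and 5 to 11 with 1 library left out. With fewer libraries such groups are more frequent for any gene. On the lower side the share of all tested genes was 10.5% with all libraries and 17.2% without wild-type KBP replicate 1, where the members numbered 11. For the other libraries left out this share was not computed. The median log2 fold change of all tested members stayed negative, from -0.24 to -0.19 over other settings and -0.33 to -0.14 with 1 library left out. The summed ratio of the C-type gamma members was 0.674 without Pcdhgc3. With the longest transcript as length the median gamma member stood at 0.331 CPM per kb in place of 0.600, and the median alpha member at 0.00457 in place of 0.00927. Calls numbered 0 to 2 among architectural genes and 0 to 4 among silencing genes with 1 library left out, and among processing genes 1 with the trend removed. The sign reversed for Pcdhb17 in the authors' signal (0.00574) and, with 1 library left out, where log2 fold changes ran from -0.83 to 0.12 for Pcdhb14, -0.17 to 0.16 for Pcdhb17, -0.48 to 0.0704 for Pcdhb22 and -0.11 to 0.0210 for Pcdhgc3. Depth limits the alpha and most beta members: 33 of 58 had under 10 counts in every library, and the limits given at 0 counts cover counting error only.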
